A study of Mus musculus with 19 samples.

Results

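Voltage-gated calcium channel genes were followed in dorsal root ganglion (DRG) neurons that had been sorted for GFP after gene transfer. Of 10 genes chosen as the channel set, 4 have expression values and are described here: Cacna1a, Cacna2d1, Cacna2d3 and Cacnb3. The other 6 (Cacna1b, Cacna1c, Cacna1d, Cacna1e, Cacna1h and Cacna2d2) were not analysed here. A further 7 channel subunit genes, of 16 listed beside them, also have values, so that 11 subunit genes were examined among 12629 genes in all.

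The 4 groups crossed the transferred genes with a lesion. GFP-naive (n = 5) and GFP-crush (n = 4) received AAV5-fGFP, and α9k1-naive (n = 6) and α9k1-crush (n = 4) received AAV5-α9-V5 together with AAV5-kindlin1-GFP, which encode an integrin subunit and its activator. All groups were injected in the left C5 to C8 ganglia, the crush groups also had their dorsal roots crushed, and GFP-positive cells were sorted after 8 weeks. The transgenes ran from CMV promoters, or from CAG for α9, which are not limited to neurons, and in the α9k1 groups the sort selected cells with kindlin1-GFP and not directly cells with α9. The labels name C57BL/6 mice and papain, whereas the study's methods name adult male Lewis rats, trypsin and collagenase; the reads were aligned to the mouse genome.

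Each library held 36.4 to 87.6 M read pairs. The share of aligned reads was 47.5% to 54.1%, and 3.87% to 4.05% of aligned bases differed from the mouse reference. Values are normalized expression on a log2 scale, so a difference of 1 is a doubling; a gene's values can be compared between libraries, and levels of different genes are not compared here. Fermt1 (kindlin-1) ranged from 0.42 to 0.80 in the GFP libraries and from 5.18 to 7.73 in the α9k1 libraries, without overlap. Itga9 (α9 integrin) ranged from 0.90 to 2.40 and from 2.38 to 7.51 respectively, overlapping at the edge. In bulk samples such as these, fewer cells of a type and less RNA per cell cannot be told apart.

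A voltage-gated calcium channel opens when the membrane depolarizes and lets calcium into the cell, where it triggers transmitter release and signals to the nucleus. The pore is formed by an α1 subunit. An extracellular α2δ subunit and an intracellular β subunit help to bring the pore to the membrane and set its gating. In sensory neurons these channels act at the central terminals in the spinal cord, and α2δ-1 is known for its rise in DRG neurons after peripheral nerve injury and as the target of gabapentin.

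Cacna2d1 and Cacna2d3, the α2δ genes with values, were called between α9k1-naive and GFP-naive, and their upstream sequences are shown for that reason. The 250 bases before the annotated start of each gene were taken from RefSeq (GRCm38.p6), 5′ to 3′ on the gene's strand. Capitals mark the GC box, GGGCGG or its complement CCGCCC. The window of Cacna2d1 lies at chr5:15934441-15934690 on the plus strand and that of Cacna2d3 at chr14:29721865-29722114 on the minus strand.
Cacna2d1: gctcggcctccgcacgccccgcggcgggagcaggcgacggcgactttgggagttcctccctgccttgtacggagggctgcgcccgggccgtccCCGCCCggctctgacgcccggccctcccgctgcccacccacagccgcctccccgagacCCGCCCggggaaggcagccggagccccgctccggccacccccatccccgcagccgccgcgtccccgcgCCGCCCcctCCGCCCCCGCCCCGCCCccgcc
Cacna2d3: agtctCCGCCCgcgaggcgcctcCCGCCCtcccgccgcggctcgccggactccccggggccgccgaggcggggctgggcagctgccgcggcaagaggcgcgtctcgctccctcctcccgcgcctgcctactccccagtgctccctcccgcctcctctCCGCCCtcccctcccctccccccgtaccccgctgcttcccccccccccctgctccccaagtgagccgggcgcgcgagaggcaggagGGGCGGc
The Cacna2d1 window was 82.4% G or C and held 6 GC boxes, and the Cacna2d3 window was 80% G or C and held 4. On either strand, 32.74% of 32851 mouse windows of this length held at least 1 GC box. An AP-1 motif (TGACTCA), a CRE (TGACGTCA), a TATA box (TATAAA) and an E-box (CACGTG) were searched on both strands, the palindromic CRE and E-box matching both at once. None of these letters was found in either window, against 4.463%, 1.546%, 12.37% and 6.021% of all windows, respectively. These are matches of letters in the mouse sequence and not measured binding sites.

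The comparison of α9k1-naive with GFP-naive asks what the integrin and its activator do without a lesion. Cacna2d1 was higher and Cacna2d3 lower in α9k1-naive, and Cacna1a and Cacnb3 were not called in either direction. Calls are at an adjusted p under 0.1, the study's threshold, from a limma fit with 3 covariates computed from the library metrics. Of all 12629 genes 29.1% were called in this comparison, beside 2 of 4 channel genes. The median difference of the 4 was 0.10, and that of all genes was -0.08.

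**Figure D1:**
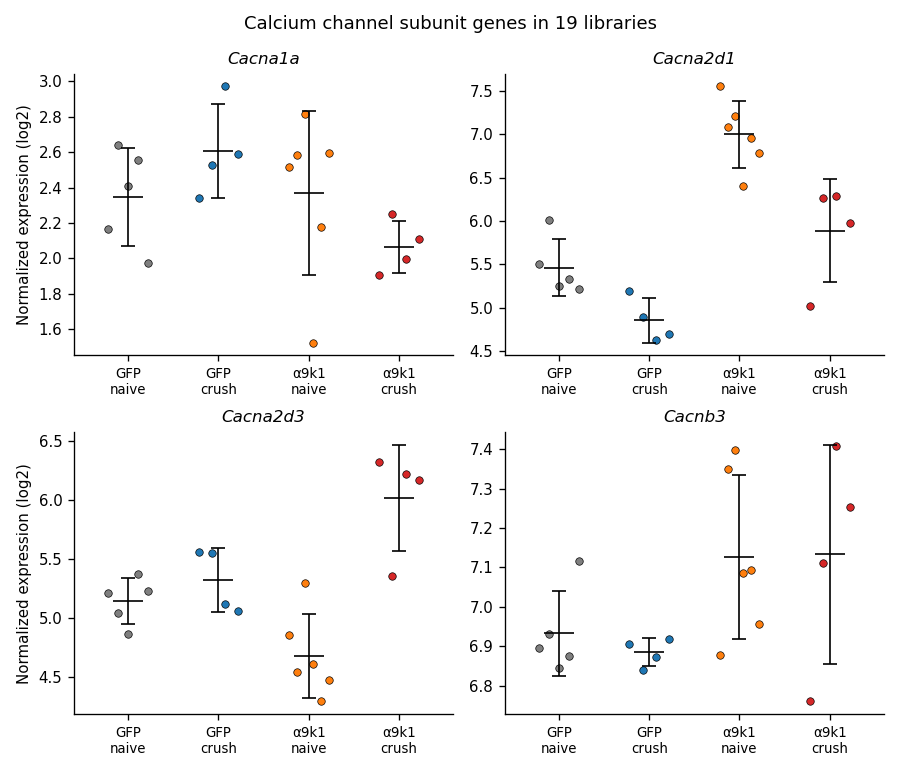
Normalized expression (log2, y axis) of the 4 channel genes in each of the 19 libraries (points) of the 4 groups (x axis), with the group mean and its SD as bars; each panel has its own y range. The 6 α9k1-naive libraries lie between 6.41 and 7.55 for Cacna2d1, above all GFP libraries, and 3 of 4 α9k1-crush libraries lie at 6.17 or higher for Cacna2d3.

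Cacna2d1 (ENSMUSG00000040118, chr5:15934691-16374511) encodes α2δ-1. The 5 GFP-naive libraries had log2 values of 5.51, 6.02, 5.26, 5.33 and 5.22, and the 6 α9k1-naive libraries had 7.55, 7.08, 7.22, 6.41, 6.96 and 6.79. The lowest α9k1-naive value was above the highest GFP-naive value. Groups without overlap, in either direction, were found for 21.7% of all genes. The difference was 1.22 ± 0.28 (log2, SE), or 2.32-fold, with a limma adjusted p of 0.00613, and without covariates it was 1.54 ± 0.23 with an adjusted p of 4.7e-05. Leaving out α9k1-naive replicate 6 left a difference of 1.03 with an adjusted p of 0.111, which ended the call. It was also ended by a fit with the replicate number as a block (1.06, adjusted p = 0.179), which called 19.4% of genes.

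After crush the Cacna2d1 values were lower in both backgrounds. The 4 GFP-crush libraries had log2 values of 5.20, 4.90, 4.63 and 4.69, all below the GFP-naive libraries, and the 4 α9k1-crush libraries had 5.02, 6.26, 6.29 and 5.98, all below the α9k1-naive libraries. Between GFP-crush and GFP-naive, where 23.1% of genes were called, the difference was -0.55 ± 0.28 (log2, SE; 95% interval -1.15 to 0.05) and was not called at a limma adjusted p of 0.196. It was called without covariates (-0.61, adjusted p = 0.0915), a fit that called 31.1% of genes, and with the covariates when α9k1-crush replicate 1 was left out (-0.62, adjusted p = 0.0572). Groups failed to overlap for 19.8% of genes in this comparison.

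Between α9k1-crush and α9k1-naive, where 9.74% of genes were called, Cacna2d1 fell by 1.88 on the log2 scale (SE 0.50, limma adjusted p = 0.0415). Without covariates it fell by 1.11 (SE 0.24, adjusted p = 0.0011), in a fit that called 55.6% of genes, and 33.4% of genes had groups without overlap. The call with covariates was lost without α9k1-naive replicate 1 (-1.70, adjusted p = 0.107) and without α9k1-naive replicate 4 (-1.56, adjusted p = 0.179). It was also lost in the replicate block fit (-1.47, adjusted p = 0.381), which called 2.62% of genes. A fit of these 2 groups alone, which called 34 of 12629 genes, lost it too (-2.72, adjusted p = 0.389).

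Whether α9k1-crush exceeded GFP-crush for Cacna2d1 depended on the covariates. In the deposited values, 3 of 4 α9k1-crush libraries were above all 4 GFP-crush libraries, and α9k1-crush replicate 1 (5.02) lay among them. Without covariates the difference was 1.03 ± 0.27 (log2, SE; limma adjusted p = 0.0039), and without α9k1-crush replicate 1 as well it was 1.32. With covariates it was -0.11 ± 0.61, with a 95% interval from -1.41 to 1.19 and an adjusted p of 0.978. The 3 covariates themselves moved with the groups, which accounted for 34.5%, 52.2% and 74.5% of their variance, and the fit with them called 0.911% of genes in this comparison against 58% without them.

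Cacna2d3 (ENSMUSG00000021991, chr14:28904943-29721864, minus strand) encodes α2δ-3, which is known for a part in heat nociception. The GFP-naive libraries had log2 values of 5.22, 5.05, 4.87, 5.37 and 5.23, and the α9k1-naive libraries had 4.85, 4.55, 5.30, 4.61, 4.30 and 4.48. All α9k1-naive libraries but replicate 3 were below every GFP-naive library. The difference was -0.79 ± 0.23 (log2, SE; 0.58-fold) with a limma adjusted p of 0.0262, and without covariates it was -0.47 with an adjusted p of 0.0584. Leaving out GFP-naive replicate 4 (-0.69, adjusted p = 0.111) or fitting these 2 groups alone (-0.65, adjusted p = 0.101) ended the call.

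The highest Cacna2d3 values were those of α9k1-crush replicates 1, 3 and 4. The GFP-crush libraries had log2 values of 5.56, 5.55, 5.12 and 5.06, which overlapped the GFP-naive libraries, and the difference of 0.28 ± 0.23 (SE; 95% interval -0.22 to 0.78) was not called at a limma adjusted p of 0.44. The α9k1-crush libraries had 6.32, 5.35, 6.22 and 6.17, all above the α9k1-naive libraries, with replicate 2 the lowest. The difference between these groups was 0.98 ± 0.42 with covariates (adjusted p = 0.192, not called) and 1.33 ± 0.20 without them (adjusted p = 3e-05). With covariates it passed the threshold when α9k1-crush replicate 2 (1.08, adjusted p = 0.0747) or α9k1-naive replicate 3 (1.25, adjusted p = 0.0993) was left out.

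The difference of Cacna2d3 between α9k1-crush and GFP-crush also turned with the covariates. It was 0.69 ± 0.22 (log2, SE; limma adjusted p = 0.0138) without them and -0.08 ± 0.51 with them, with a 95% interval from -1.17 to 1.0. The test of whether crush acted differently with α9k1 than with GFP, the interaction, gave 1.16 ± 0.29 without covariates (adjusted p = 0.0068) and 0.70 ± 0.48 with them (adjusted p = 0.554). The interaction was called for 39.4% of genes without covariates and for 2.2% with them. For Cacna2d1 the interaction was -1.33 ± 0.57 with covariates (adjusted p = 0.312) and -0.50 ± 0.35 without them (adjusted p = 0.295), so that it was not called in either fit.

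**Figure D2:**
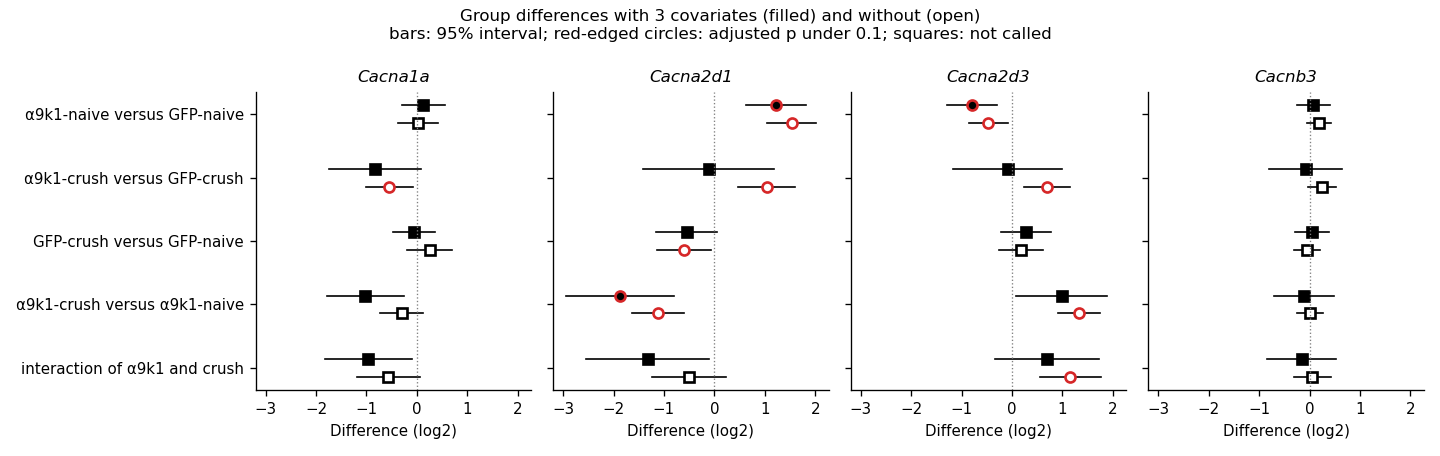
Group differences of the 4 channel genes (x axis, log2; bars are 95% intervals) for 4 comparisons and the interaction (y axis), with 3 covariates (filled) and without them (open); circles with a red edge passed an adjusted p of 0.1, squares did not. The filled and open estimates for Cacna2d1 in α9k1-crush versus GFP-crush lie at -0.11 and 1.03.

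The α2δ genes moved in opposite directions in the naive groups, and their difference in each library shows this on 1 scale. Cacna2d1 minus Cacna2d3 was between -0.04 and 0.97 in GFP-naive, between -0.65 and -0.37 in GFP-crush, and between 1.80 and 2.70 in α9k1-naive. In α9k1-crush it was -1.30, 0.91, 0.07 and -0.19. These are differences of log2 values used to compare libraries and do not say which gene was the more abundant. Over the 19 libraries the Pearson correlation of the 2 genes was -0.41, a description of points that share 4 groups.

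**Figure D3:**
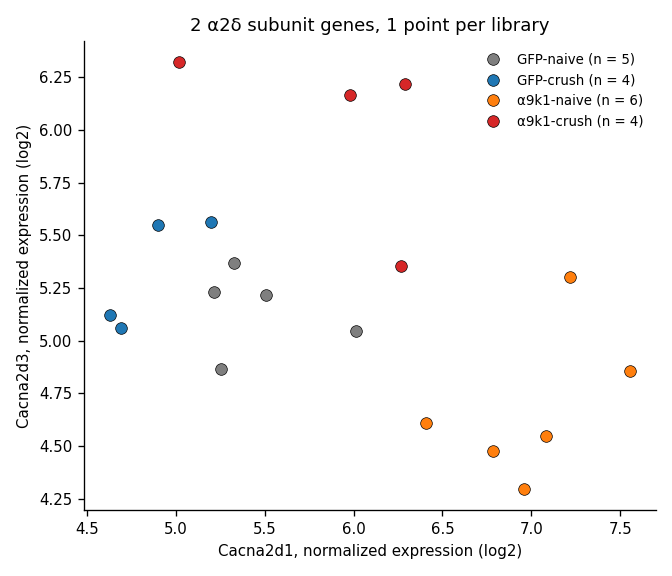
Cacna2d1 (x axis) against Cacna2d3 (y axis), both as normalized expression on a log2 scale, with 1 point for each of 19 libraries coloured by group. The 6 α9k1-naive libraries lie at the lower right, with Cacna2d1 at 6.41 or higher, and 3 of 4 α9k1-crush libraries lie at the top, with Cacna2d3 at 6.17 or higher.

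Cacna1a (ENSMUSG00000034656, chr8:84388440-84640246) encodes the pore of P/Q-type channels, which carry calcium for transmitter release. The GFP-naive libraries had log2 values of 2.17, 2.64, 2.41, 2.55 and 1.97, and the α9k1-naive libraries had 2.52, 2.58, 2.81, 1.52, 2.18 and 2.59. These groups overlapped, with a difference of 0.13 (95% interval -0.29 to 0.55; limma adjusted p = 0.683). The GFP-crush libraries had 2.34, 2.53, 2.97 and 2.59, and the difference from GFP-naive was -0.06 with covariates and 0.26 without them, called in neither fit.

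The lowest group of Cacna1a was α9k1-crush, with log2 values of 1.91, 2.25, 2.0 and 2.11. All 4 were below all GFP-crush libraries, and 40.8% of genes had groups without overlap in this comparison. The difference was -0.83 ± 0.43 (log2, SE) with covariates (limma adjusted p = 0.596, not called) and -0.54 ± 0.22 without them (adjusted p = 0.0503). The latter call was lost without α9k1-crush replicate 1 (-0.49, adjusted p = 0.113). Against α9k1-naive, the difference was -1.02 ± 0.36 with covariates (adjusted p = 0.113) and -0.30 ± 0.20 without them (adjusted p = 0.23). With covariates it was called when α9k1-crush replicate 2 (-1.10, adjusted p = 0.0619), GFP-crush replicate 2 (-1.22, adjusted p = 0.0692) or GFP-naive replicate 4 (-1.33, adjusted p = 0.0515) was left out.

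Cacnb3 (ENSMUSG00000003352, chr15:98632220-98644530) encodes the β3 subunit. Its log2 values lay between 6.85 and 7.12 in GFP-naive, 6.84 and 6.92 in GFP-crush, 6.88 and 7.40 in α9k1-naive, and 6.76 and 7.41 in α9k1-crush. All 4 groups overlapped, and no comparison was called with covariates or without them. With covariates the 95% interval of the difference was -0.26 to 0.41 between α9k1-naive and GFP-naive, -0.29 to 0.38 between GFP-crush and GFP-naive, and -0.80 to 0.65 between α9k1-crush and GFP-crush. Without covariates and without α9k1-crush replicate 1, the lowest of its group, the last of these was 0.37 with a limma adjusted p of 0.0224.

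The order of the group means differed between the genes. For Cacna2d1 it was α9k1-naive (7.0 ± 0.39, SD), α9k1-crush (5.89 ± 0.60), GFP-naive (5.46 ± 0.33) and GFP-crush (4.85 ± 0.26), where α9k1-crush and GFP-naive overlapped. For Cacna2d3 it was α9k1-crush (6.02 ± 0.45, SD), GFP-crush (5.32 ± 0.27), GFP-naive (5.15 ± 0.19) and α9k1-naive (4.68 ± 0.35), and each group overlapped its neighbour. For Cacna1a the means lay between 2.06 and 2.61 and for Cacnb3 between 6.88 and 7.13, and neighbouring groups overlapped for both. With the 3 covariates none of the 4 genes was called by limma between α9k1-crush and GFP-crush, and 0 of 4 had an unadjusted p under 0.05, whereas 2 of 4 were called with 1 covariate, beside 48.6% of all genes, and 3 of 4 without covariates, beside 58% (Cacna2d1 and Cacna2d3 higher, Cacna1a lower). Without covariates 46% of genes were called between α9k1-naive and GFP-naive, beside the same 2 of 4 channel genes.

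The other 7 subunit genes with values were Cacna1g, Cacnb1, Cacnb4, Cacng2, Cacng3, Cacng4 and Cacng5. Between α9k1-naive and GFP-naive 4 of 7 fell, none rose and 3 were not called (median -0.64), beside 29.1% of all genes called. Without covariates 4 of 7 fell and 2, Cacna1g and Cacnb1, rose, beside 46%. The 3 Cacng genes among the 4 encode relatives of the channel γ subunit that are best known as partners of AMPA-type glutamate receptors. Cacng2 (stargazin) had values of 3.11, 2.59, 3.52, 3.13 and 3.66 in GFP-naive and of 1.34, 1.48, 1.97, 1.45, 1.59 and 1.88 in α9k1-naive, without overlap, and fell by 1.51 on the log2 scale (SE 0.29, limma adjusted p = 0.002).

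Cacng3 ranged from 3.67 to 4.03 in GFP-naive and from 2.15 to 3.22 in α9k1-naive, and Cacng5 from 2.12 to 3.32 and from 0.74 to 2.19. Cacng3 fell by 1.16 (log2, limma adjusted p = 0.0671) and Cacng5 by 1.32 (adjusted p = 0.0164). Cacnb4, a β subunit, fell by 0.64 (adjusted p = 0.0269), and its groups overlapped. Without α9k1-naive replicate 6 the calls of Cacnb4 (-0.66, adjusted p = 0.132), Cacng3 (-1.36, adjusted p = 0.164) and Cacng5 (-0.80, adjusted p = 0.286) were lost. The call of Cacng3 was also lost without α9k1-crush replicate 3 (-0.99), α9k1-naive replicate 5 (-1.03), or GFP-naive replicate 2 (-1.18), 4 (-1.13) or 5 (-1.10). With the replicate block the calls of Cacnb4 (-0.51), Cacng3 (-1.33) and Cacng5 (-0.98) were lost, and that of Cacnb4 also with these 2 groups alone (-0.56). These fits called 19.4% and 23% of all genes, respectively.

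**Figure D4:**
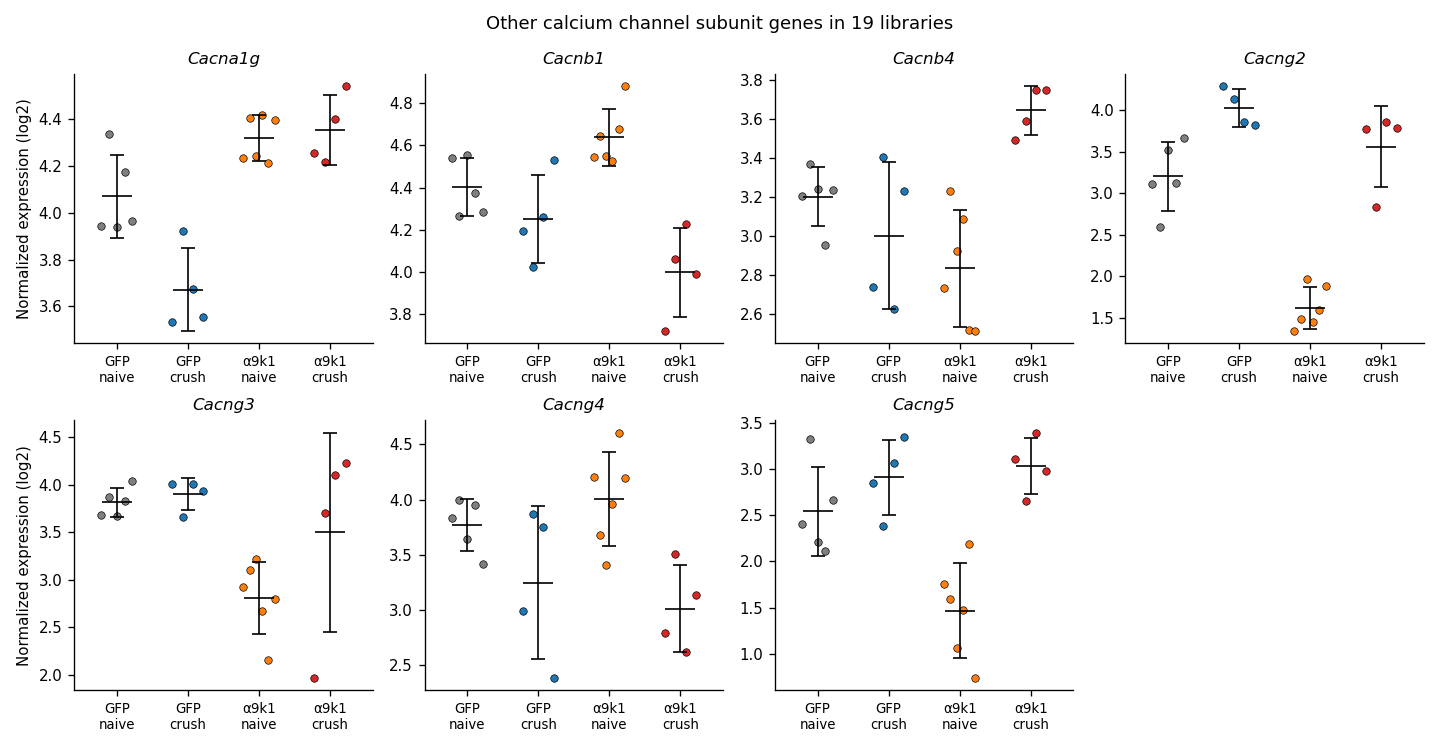
Normalized expression (log2, y axis) of the 7 other subunit genes in each of the 19 libraries (points) of the 4 groups (x axis), with the group mean and its SD as bars; each panel has its own y range. For Cacng2 the 6 α9k1-naive libraries lie between 1.34 and 1.97, below all other libraries.

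After crush, Cacng2 was higher. The GFP-crush libraries had log2 values of 4.29, 4.13, 3.86 and 3.82, all above GFP-naive, and the α9k1-crush libraries had 3.77, 2.84, 3.85 and 3.78, all above α9k1-naive. The rise over α9k1-naive was 1.96 ± 0.53 (SE, limma adjusted p = 0.0432) and that over GFP-naive 0.79 ± 0.30 (adjusted p = 0.0847). The first call was lost without α9k1-crush replicate 4 (1.76, adjusted p = 0.104) or α9k1-naive replicate 1 (1.76, adjusted p = 0.114). The second was lost in 6 of 19 fits that each left out 1 library, with differences of 0.69 without α9k1-crush replicate 3, 0.68 and 0.71 without GFP-crush replicates 1 and 2, and 0.78, 0.46 and 0.78 without GFP-naive replicates 1, 2 and 4. Both calls were lost in fits of the 2 groups alone (3.17 and 0.87), which called 34 and 1 of 12629 genes. The first was also lost with the replicate block (1.91), which called 2.62% of genes.

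Cacna1g, the pore of a low-voltage-activated T-type channel, fell between GFP-crush (3.53, 3.92, 3.67 and 3.56) and GFP-naive (3.94, 4.34, 3.94, 4.18 and 3.96) by 0.47 on the log2 scale (SE 0.12, limma adjusted p = 0.0207). That call was lost with these 2 groups alone (-0.77, adjusted p = 0.472), a fit that called 1 of 12629 genes. These groups did not overlap, at 3.92 against 3.94 where they came closest. Its α9k1-crush values (4.25, 4.22, 4.40 and 4.54) were all above GFP-crush, a difference called without covariates (0.68, adjusted p = 0.00012) and not with them. In α9k1-crush versus GFP-crush and in the interaction, none of the 11 subunit genes was called by limma with covariates, though 1 and 2 of 11 had an unadjusted p under 0.05. Without covariates 5 and 6 of 11 were called, beside 58% and 39.4% of all genes. Cacnb1 and Cacng4 were called in no comparison with covariates. Without them both were lower in α9k1-crush than in α9k1-naive (-0.64, limma adjusted p = 0.00019, and -0.99, adjusted p = 0.0056, respectively). In that comparison 1 of the 7 other subunit genes rose and 0 fell with covariates, beside 9.74% of all genes called. Without covariates 4 rose and 2 fell, beside 55.6%. Groups did not overlap for 4 of 7, beside 33.4%.

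Of 23 proteins listed as binding or restraining these channels, 21 have values. Between α9k1-naive and GFP-naive 3 rose, 8 fell and 10 were not called (median -0.12), beside 29.1% of all genes called. Values without overlap between these groups were found for 9 of 21, beside 21.7% of all genes. Without covariates 4 rose and 11 fell, beside 46%. Thbs1, a thrombospondin, rose from between 1.58 and 2.46 to between 4.55 and 5.05 (difference 2.68 ± 0.24, log2, SE; limma adjusted p = 1.5e-06). Thbs2 moved the other way, from between 3.74 and 4.48 to between 0.85 and 2.64 (-2.55 ± 0.37, adjusted p = 0.00018). Thrombospondins are secreted proteins that have been described as ligands of α2δ-1.

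The RGK GTPases bind β subunits and keep channels from the membrane, and they did not move as a group. Gem rose by 2.14 ± 0.41 (log2, SE; limma adjusted p = 0.0016) between α9k1-naive and GFP-naive, whereas Rem1 (-2.07 ± 0.31, adjusted p = 0.00028) and Rem2 (-2.40 ± 0.41, adjusted p = 0.00067) fell. Cabp1, a calcium-binding relative of calmodulin that changes channel gating, fell by 1.43 (adjusted p = 0.00013).

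Between α9k1-crush and α9k1-naive 5 of the 21 regulators rose, 1 fell and 15 were not called (median 0.17), beside 9.74% of all genes called. Without covariates 7 rose and 6 fell, with a median of -0.064, beside 55.6%, so that the balance of rises over falls depended on the covariates. Groups did not overlap for 9 of 21, beside 33.4% of all genes. Thbs2 rose by 3.86 ± 0.67 (log2, SE; limma adjusted p = 0.0051), Rem2 by 3.71 ± 0.73 (adjusted p = 0.0094) and Cabp1 by 2.06 ± 0.36 (adjusted p = 0.0054), and Thbs1 fell by 1.87 (adjusted p = 0.0214). The interaction was called for Thbs2, at 4.27 ± 0.76 (adjusted p = 0.016), beside 2.2% of all genes. It was not called with the replicate block (3.85, adjusted p = 0.133), which called 0.206% of genes. Thbs2 ranged from 4.94 to 5.95 in α9k1-crush, above all other libraries. Of 4 markers of endothelial cells and fibroblasts, 3 (Col1a1, Col3a1 and Dcn) also rose between these groups (median of the 4, 1.91) and the same 3 were called higher in the interaction (median 2.78), and their part in the Thbs2 values was not tested. Without covariates 2 of the 4 rose (median 0.68), beside 55.6% of all genes, and 3 were higher in the interaction (median 1.88), beside 39.4%. The summed level of the 4 (log2) ranged from 9.24 to 9.58 in GFP-naive, 8.03 to 8.49 in GFP-crush, 6.28 to 7.97 in α9k1-naive and 7.56 to 8.07 in α9k1-crush. With α9k1-crush and α9k1-naive alone in the fit the calls of Thbs2 (4.29, adjusted p = 0.227), Rem2 (6.17, adjusted p = 0.115), Cabp1 (2.89, adjusted p = 0.156) and Thbs1 (-2.54, adjusted p = 0.16) were lost, and that of Thbs1 also with the replicate block (-1.83). These fits called 0.269% and 2.62% of all genes, respectively.

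Between GFP-crush and GFP-naive 1 regulator rose, 5 fell and 15 were not called (median -0.25), beside 23.1% of all genes called. Without covariates 3 rose and 6 fell, beside 31.1%. Groups did not overlap for 5 of 21, beside 19.8% of all genes. Cabp1 rose by 0.68 (log2, limma adjusted p = 0.0352) and Rem1 fell by 1.23 (adjusted p = 0.0193). Thbs1 fell by 0.63 (adjusted p = 0.0928), a call that 13 of 19 fits without 1 library lost, the exceptions being those without GFP-crush replicate 3, GFP-naive replicate 5, α9k1-crush replicates 2 and 4, and α9k1-naive replicates 2 and 6. Median-centring (-0.49, adjusted p = 0.163) and array weights (-0.62, adjusted p = 0.107) lost it too. The call of Cabp1 was lost without GFP-crush replicate 2 (0.58, adjusted p = 0.118) or GFP-naive replicate 2 (0.68, adjusted p = 0.102). A fit of these 2 groups alone called 1 of 12629 genes, and in it Rem1 differed by -0.31 (adjusted p = 0.874), Thbs1 by -0.47 (adjusted p = 0.827) and Cabp1 by -0.019 (adjusted p = 0.993). No regulator was called by limma between α9k1-crush and GFP-crush with covariates, and 4 of 21 had an unadjusted p under 0.05. Without them 6 were higher and 4 lower, beside 58% of all genes called. Groups did not overlap for 5 of 21 in this comparison, beside 40.8% of all genes.

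**Figure D5:**
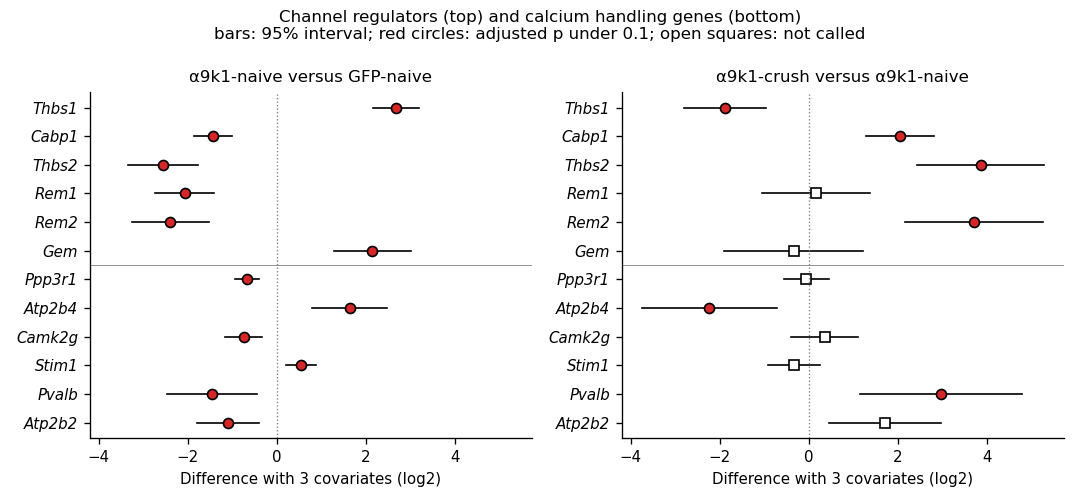
Differences (x axis, log2, with 3 covariates; bars are 95% intervals) of the 6 named channel regulators (above the line) and 6 named calcium handling genes (below it) in 2 comparisons; red circles passed an adjusted p of 0.1 and open squares did not. Thbs1 lies at 2.68 without a lesion and at -1.87 between α9k1-crush and α9k1-naive, and Thbs2 at -2.55 and 3.86.

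Of 35 listed genes of calcium stores, pumps, buffers and calcium-dependent enzymes 23 have values. Between α9k1-naive and GFP-naive 2 rose, 5 fell and 16 were not called (median -0.11), beside 29.1% of all genes called. Without covariates 3 rose and 10 fell, beside 46%. Atp2b4 (1.64 ± 0.40, log2, SE; limma adjusted p = 0.0086), a pump that exports calcium, and Stim1 (0.54 ± 0.15, adjusted p = 0.0209), the sensor of calcium in the endoplasmic reticulum, rose. Atp2b2 (-1.10, adjusted p = 0.0272), another such pump, Ppp3r1 (-0.67, adjusted p = 0.002), a calcineurin subunit, Camk2g (-0.75, adjusted p = 0.0136), a calmodulin-dependent kinase, and Pvalb (-1.46, adjusted p = 0.0399), a calcium buffer, fell. Pvalb is also on the marker list of large myelinated neurons.

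Between GFP-crush and GFP-naive 1 of these 23 rose and 4 fell, beside 23.1% of all genes called, and without covariates 3 rose and 6 fell, beside 31.1%. Pvalb rose by 1.74 ± 0.48 (log2, SE; limma adjusted p = 0.0258) and Stim1 fell by 0.61 (adjusted p = 0.0187). Between α9k1-crush and α9k1-naive 1 rose and 2 fell, beside 9.74%, and without covariates 10 rose and 5 fell, beside 55.6%, which turned the balance. Pvalb rose by 2.97 ± 0.86 (adjusted p = 0.0558) and Atp2b4 fell by 2.23 (adjusted p = 0.0828). Between α9k1-crush and GFP-crush limma called none of the 23 with covariates, and 1 of 23 had an unadjusted p under 0.05, whereas 9 were higher and 5 lower without covariates, beside 58% of all genes. Single libraries and the choice of fit decided some of these calls. The Pvalb calls were lost without α9k1-naive replicate 6 (-1.45), GFP-crush replicate 3 (-1.19) or GFP-naive replicate 1 (-1.16) for the naive groups, without GFP-naive replicate 2 (1.53) for crush with GFP, and without α9k1-naive replicate 1 (2.85), 2 (2.82) or 4 (3.17) or GFP-naive replicate 3 (2.66) for crush with α9k1. The fall of Atp2b4 was lost in 10 of 19 such fits and was smallest, at -1.06, without α9k1-naive replicate 4. The other 9 fits, in which it was called, left out α9k1-crush replicate 2, α9k1-naive replicates 5 and 6, GFP-naive replicates 1 and 2, or any GFP-crush replicate.

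The fits of 2 groups alone and with the replicate block ended further calls of these genes. The former called 1 of 12629 genes between GFP-crush and GFP-naive, 34 between α9k1-crush and α9k1-naive, and 23% between the naive groups. The replicate block fit called 19.4% of genes between the naive groups and 2.62% between α9k1-crush and α9k1-naive. With 2 groups alone, Pvalb differed by 0.59 (limma adjusted p = 0.899) and Stim1 by -0.80 (adjusted p = 0.59) between GFP-crush and GFP-naive, Pvalb by -1.27 (adjusted p = 0.109) and Atp2b2 by -0.64 (adjusted p = 0.227) between α9k1-naive and GFP-naive, and Pvalb by 2.49 (adjusted p = 0.363) and Atp2b4 by -5.27 (adjusted p = 0.134) between α9k1-crush and α9k1-naive. With the replicate block the calls of Pvalb (-1.40) and Atp2b4 (1.79) were lost for the naive groups, and those of Pvalb (4.21) and Atp2b4 (-1.80) for crush with α9k1. Quantile normalization also ended the latter call of Atp2b4 (-2.0).

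Markers of other cells moved with the groups, and their part in the results above was not tested. All 8 neuron markers have values, and their summed level (log2) ranged from 12.5 to 12.9 in GFP-naive, 13.1 to 13.3 in GFP-crush, 12.4 to 12.7 in α9k1-naive and 13.0 to 13.1 in α9k1-crush. The sum of 5 satellite glia markers ranged from 15.5 to 15.9, 14.6 to 14.9, 16.2 to 16.8 and 14.0 to 14.6 in the same order of groups, and lay close to that of Apoe alone, with means of 15.6 ± 0.15 (SD) in GFP-naive and 16.5 ± 0.20 in α9k1-naive. Another of these markers, Cadm2, was lower in α9k1-naive (-1.0 with covariates, limma adjusted p = 0.0017, and -0.48 without them, adjusted p = 0.0638), with overlapping groups. Between α9k1-naive and GFP-naive, where 29.1% of all genes were called, 3 of 5 satellite glia markers rose and 1 fell, 5 of 7 macrophage markers rose, 5 of 6 Schwann cell markers fell, and 4 of 4 markers of endothelial cells and fibroblasts fell. Of the sensory subtypes, 1 of 8 nociceptor markers (Trpv1) rose, 1 of 6 markers of large myelinated neurons rose while 2 fell, 1 of 3 markers of Aδ mechanoreceptors rose while 1 fell, and the 1 marker of C low-threshold mechanoreceptors with values, Fam19a4, fell (-1.70). Of the 8 neuron markers 1 rose and 1 fell. Without covariates, where 46% of all genes were called, 2 satellite glia markers rose and 2 fell, 1 nociceptor marker rose and 2 fell, 2 large myelinated markers rose and 2 fell, 1 Aδ marker rose and 2 fell, Fam19a4 fell (-1.49), and 2 neuron markers fell and none rose, while the counts for macrophages, Schwann cells, and endothelial cells and fibroblasts were as with covariates.

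After crush with GFP, beside 23.1% of all genes, 4 of 5 satellite glia markers fell. Of macrophage markers 5 of 7 rose, and of neuron markers 4 of 8. After crush with α9k1, beside 9.74%, 4 of 5 satellite glia and 1 of 8 nociceptor markers fell, and 4 of 6 Schwann cell markers rose. None in these lists moved the other way. Crush with α9k1 without covariates, beside 55.6%, had 4 satellite glia markers lower and 1 higher, 5 nociceptor markers lower, and 4 Schwann cell markers higher and 2 lower. The sum of 6 Schwann cell markers ranged from 13.2 to 13.6 in GFP-naive, 13.3 to 13.9 in GFP-crush, 12 to 12.4 in α9k1-naive and 12.5 to 13.5 in α9k1-crush. The sum of 7 macrophage markers ranged from 7.10 to 7.64, 8.83 to 9.44, 8.41 to 8.90 and 8.50 to 9.48, and that of 3 muscle markers from 4.86 to 5.29, 4.88 to 5.40, 3.50 to 5.58 and 4.18 to 5.09. The sum of 8 nociceptor markers ranged from 11.5 to 12.6 in GFP-naive, 11.1 to 12.6 in GFP-crush, 12.3 to 13.2 in α9k1-naive and 8.99 to 12.1 in α9k1-crush. The median sums of satellite glia, nociceptor, large myelinated and Aδ markers were highest in α9k1-naive, where Cacna2d1 was also highest. In the 2 naive groups the large myelinated sum moved with Spp1 (mean 11.6 in α9k1-naive against 10.5 in GFP-naive). Nefh (7.21 against 9.41) and Pvalb (4.40 against 6.17) were instead lowest in α9k1-naive. In the Aδ list Necab2 (1.26 against 2.83) and Fam19a1 (1.91 against 2.76) were likewise lowest there. The nociceptor sum followed Calca (11.6 against 11.0) and Tac1 (11.6 against 10.8), whereas Sst (4.21 against 6.88), Mrgprd (3.21 against 4.10) and Scn10a (4.96 against 5.18) had lower means in α9k1-naive than in GFP-naive, so these sums do not stand for all their members. Those of neuron, Schwann cell, muscle, and endothelial and fibroblast markers were lowest there, as were Cacna2d3 and Cacng2. The lowest nociceptor sum was that of α9k1-crush replicate 1, in which Calca was 8.09 against 10.8 to 11.2 in the other 3 libraries of its group. The same library was the lowest of its group for Cacna2d1 (5.02) and Cacna1a (1.91) and the highest for Cacna2d3 (6.32).

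The genes whose values ran closest to each channel gene over the 19 libraries were found by Pearson correlation among all genes. They were Bok (r = 0.94) and Syt4 (0.94) for Cacna2d1, Lrrn1 (0.95) and Arrdc1 (0.94) for Cacna2d3, Pirt (0.87) and Gm11868 (0.85) for Cacnb3, and Gm23053 (0.76) and Klf16 (0.76) for Cacna1a. Among the channel genes themselves, Cacna2d1 and Cacnb3 had r = 0.57, and Cacna2d3 and Cacnb3 had r = 0.06. These points share their groups and their library metrics, and the correlations are descriptions.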

How the data were processed

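RNA-seq was performed on GFP-positive cells sorted from DRGs in 19 libraries, assigned to groups by their labels. Per the study's methods, the authors aligned reads to mm10/GRCm38 with STAR, counted them with Salmon, removed genes with few reads, and deposited log2 values after cqn normalization for depth and gene length. The values carry no gene names, and their row order was taken from the authors' gene table; gene means correlated with the authors' mean column of that table at r = 0.959, against 0.0899 after a shift by 1 row. The deposited columns of fold changes and p-values of the authors were not used. The library metrics deposited by the authors are read counts, fractions, percentages and ratios, and the study's methods name STAR and Picard for such measures.

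Group differences were tested with limma 3.58.1 (R 4.3.3) in 1 fit to all 19 libraries, with 4 group means and the first 3 principal components of 48 scaled metrics (45.9%, 24.1% and 11.5% of their variance) as covariates, as in the study's model. The study's batch term is not in the sample table used here and so is absent from the fit. P-values were adjusted over 12629 genes by Benjamini-Hochberg, and the threshold was 0.1. The 5 comparisons share groups, and so are not independent. The script was tested on simulated data. The labels do not say whether replicates are separate animals, and the study's results text calls them biological replicates. Counting error is not known from normalized values.

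The channel genes and lists were chosen with earlier results of these data known. Named genes are all channel subunits with values, the 6 genes with the smallest adjusted p in each of the regulator and calcium handling lists, the 2 genes most correlated with each channel gene, Fermt1 and Itga9. Markers outside this rule were named after their values were seen, and 1 listed nociceptor marker is not reported here. Alternatives were fits without covariates, with 1 covariate, with only the groups compared, with a replicate block and with array weights, removal of the lowest 25% of genes, quantile normalization, median-centring and leaving out each library. Cacna1a, Cacnb4, Cacng2, Cacng5, Rem1, Thbs1 and Atp2b4 were among the lowest 25% of genes, so the fit after that removal gives no value for them. Python 3.11.15 with pandas 2.3.3, numpy 2.4.6 and matplotlib 3.10.9 was used.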

Additional observations from a re-analysis of the deposited data

Results flagged for a closer look

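In 92 groups of 4 to 6 libraries, 8 held a library whose gap to its nearest neighbour was large for the range of the group (Dixon's test), where chance gives about 1 in 20 groups. In α9k1-crush, replicate 2 was low for Cacna2d3 (5.35), Cacng2 (2.84) and Rem2 (4.72), and replicate 4 was high for Thbs2 (5.95). In α9k1-naive, replicate 5 was high for Rem1 (1.90) and replicate 4 was low for Atp2b4 (2.10). In GFP-naive, replicate 4 was low for Cabp1 (6.00) and replicate 5 was low for Stim1 (4.65). Thbs2 differed in its response to crush between α9k1 and GFP, with an interaction of 4.27 (log2, limma adjusted p = 0.016). With the replicate block it was 3.85 (adjusted p = 0.133) and was not called, beside 0.206% of all genes called.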

How the results depend on the processing

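The channel genes called with 3 covariates were 2 of 4 for α9k1-naive against GFP-naive (A), 0 for α9k1-crush against GFP-crush (B), 0 for GFP-crush against GFP-naive (C), 1 for α9k1-crush against α9k1-naive (D), and 0 for the interaction. Without covariates these were 2, 3, 1, 2 and 1, with 1 covariate 2, 2, 1, 2 and 1, and without covariates and α9k1-crush replicate 1, chosen after seeing the data, 2, 3, 1, 2 and 1. Of all genes, the fit with 3 covariates called 29.1%, 0.911%, 23.1%, 9.74% and 2.2% in the same order. The shares were 46%, 58%, 31.1%, 55.6% and 39.4% without covariates, and 45.6%, 48.6%, 26.7%, 54% and 32.6% with 1 covariate. With only the groups compared the counts for A and D were 1 (Cacna2d1) and 0, beside 23% and 0.269% of all genes. With a replicate block they were 1 (Cacna2d3) and 0, beside 19.4% and 2.62%. Median-centring and array weights each gave 2 for D, where they called 531 genes higher and 679 lower, and 963 higher and 1082 lower, respectively. Leaving out 1 library gave 1 to 2, 0, 0 to 1, 0 to 3 and 0.

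Same-numbered libraries did not deviate together (25 pairs, r from -0.27 to 0.15, 4 above 0.1, 3 of 19 libraries closest to their own number), so the replicate block pairs libraries by number only. Differences that changed sign were these. For Cacna2d1 between α9k1-crush and GFP-crush (-0.11), values were 1.03 without covariates, 0.41 with only the groups compared, 1.18 with 1 covariate, 0.049 with the replicate block, 1.32 without covariates and α9k1-crush replicate 1, and -0.64 to 0.35 without 1 library. For Cacna2d3 in that comparison (-0.08) they were 0.69 without covariates, 0.80 with only the groups compared, 0.79 with 1 covariate, 0.59 without covariates and α9k1-crush replicate 1, and -0.27 to 0.14 without 1 library. For Cacnb3 there (-0.08) they were 0.25, 0.027, 0.20, 0.37 and -0.27 to 0.050 in the same order. Over all alternatives the lowest values in that comparison were -0.69 for Cacna2d3 and -0.32 for Cacnb3.

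For Cacna1a between GFP-crush and GFP-naive (-0.06) they were 0.26 without covariates, with or without α9k1-crush replicate 1, 0.11 with only the groups compared, 0.048 with 1 covariate, 0.16 with quantile normalization, 0.083 after median-centring, and -0.16 to 0.10 without 1 library. For Cacnb3 between GFP-crush and GFP-naive (0.05) they were -0.048 without covariates, also without α9k1-crush replicate 1, and -0.022 and -0.019 with only the groups compared and with 1 covariate. For Cacnb3 between α9k1-crush and α9k1-naive (-0.10) they were 0.0067, 0.091, 0.13 without covariates and α9k1-crush replicate 1, and -0.30 to 0.036 without 1 library, and for its interaction (-0.15) 0.055 without covariates, 0.011 with 1 covariate and 0.18. Cabp1 between GFP-crush and GFP-naive (0.68) was -0.019 with only the groups compared. The causes were not tested.

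Median-centring moved the median of all genes between GFP-crush and GFP-naive from -0.08 to 0.06, and the called genes from 933 higher and 1984 lower to 1826 and 1180, while quantile normalization gave 1206 and 1373. For the interaction, median-centring changed 171 higher and 107 lower to 118 and 167, and quantile normalization to 128 and 134. Over the 51 differences that were recomputed under the alternatives, 1257 of the alternative values kept direction and call, 18 kept direction and became called, 86 kept direction and lost the call, and 45 changed sign, of which 7 also became called and 1 lost the call. Depth limits are not known from normalized values.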
